A study of Rattus norvegicus with 12 samples.

Results

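The 10 genes described here encode proteins of the Z-disc and of its response to stretch: the crosslinkers and scaffolds Actn2, Ldb3, Tcap, Myoz2 and Flnc, the intermediate filament protein Des, the Xin actin-binding repeat proteins Xirp1 and Xirp2, and the stretch-responsive regulators Ankrd1 and Csrp3. They were chosen by name, and all 10 were found among the 30560 genes of the table and among the 18182 that passed the count minimum. Each gene was measured in heart RNA from 12 male Wistar rats, 4 in each of 3 groups, with 1 library per rat. All rats had a left lateral thoracotomy at 7 weeks of age. In the Sham group no ligature was placed, and the rats were gavaged with vehicle (0.5% carboxymethylcellulose). In the MI group a permanent ligation of the left anterior descending coronary artery caused a myocardial infarction, followed by the same vehicle. In the MI + UA group the same ligation was followed by daily urolithin A (UA), a compound that gut bacteria make from dietary ellagitannins, at 50 mg/ml. By the study's methods dosing began 24 h after surgery and lasted 8 weeks, whereas its results text states another dose and another start. The rats were fasted overnight before collection, and RNA came from 20 µm sections of formalin-fixed, paraffin-embedded blocks of the middle left ventricle. Such a block holds whatever scar, border and remote muscle the section crossed, so each value is an average over them.

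The Z-disc is the plate that bounds each sarcomere, where actin filaments of opposite polarity are crosslinked and where titin is anchored. In the heart it also serves as a hub for proteins that react to load: some of them move between the Z-disc and the nucleus, and several are mutated in inherited cardiomyopathy. Ankrd1 is a classic transcript of the overloaded ventricle, and the Xin proteins sit mainly at the intercalated disc, where cardiomyocytes are joined end to end.

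Each library held between 6228706 and 19031695 reads on genes, and the 10 genes together took between 0.329% and 0.493% of them. The lowest count of any of them was 705 reads (Csrp3, Sham rat 12), for which counting error alone is 3.77%, and the highest was 21840 reads (Xirp2, MI + UA rat 66), with a counting error of 0.677%. The coefficient of variation between rats of one group ran from 3.98% (Myoz2 in Sham) to 29.8% (Tcap in Sham). The labels put rat 66 in MI + UA, whereas the study's echocardiography listing places it with the vehicle-treated MI rats. It was counted as MI + UA. With it counted as MI, the same 4 genes passed in MI against Sham, with Xirp2 at a log2 fold change of 0.61 in place of 0.53, and the values that moved most among the others were those of Xirp1 (-0.055 in place of -0.16) and Flnc (0.077 in place of 0.0049). Heart muscle was plain in every library, since 14 cardiomyocyte markers (Ttn, Tnnt2, Actc1, Ryr2 and others) summed to at least 38194 CPM (reads of a gene relative to the library's total, with libraries scaled by the TMM method). The defining skeletal muscle genes Myh4, Myod1 and Pax7 had 6, 1 and 1 reads over all 12 libraries, while others of that list were present, with 1454 reads of Tnnt3, 159 of Mylpf and 104 of Actn3.

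Promoter sequences of 4 of the genes are shown because they hold, close to the start of transcription, the binding consensus of a muscle transcription factor. Their transcripts also took different courses after infarction. With libraries scaled over all genes, Xirp2 was higher, Myoz2 was lower, and Xirp1 and Ldb3 did not pass the test. Each covers 250 bases before and 50 bases from the start, taken from RefSeq on the GRCr8 assembly. The read counts themselves were made on mRatBN7.2, so these positions do not apply to the count table. RefSeq entries were found for 7 of the 10 genes and not for Ankrd1, Csrp3 and Tcap. Capitals mark the MEF2 consensus in Xirp1 (chr8:128634962-128635261, minus strand, the first of 3 entries), Xirp2 (chr3:72533936-72534235, plus strand) and Myoz2 (chr2:213852729-213853028, minus strand), and the CArG box, the consensus of serum response factor, in Ldb3 (chr16:9924630-9924929, minus strand).
Xirp1: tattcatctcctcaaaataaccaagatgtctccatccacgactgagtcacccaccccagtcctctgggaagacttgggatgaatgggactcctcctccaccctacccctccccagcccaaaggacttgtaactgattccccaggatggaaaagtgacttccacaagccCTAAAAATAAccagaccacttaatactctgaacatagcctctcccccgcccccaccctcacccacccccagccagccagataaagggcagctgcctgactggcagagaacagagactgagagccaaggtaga
Xirp2: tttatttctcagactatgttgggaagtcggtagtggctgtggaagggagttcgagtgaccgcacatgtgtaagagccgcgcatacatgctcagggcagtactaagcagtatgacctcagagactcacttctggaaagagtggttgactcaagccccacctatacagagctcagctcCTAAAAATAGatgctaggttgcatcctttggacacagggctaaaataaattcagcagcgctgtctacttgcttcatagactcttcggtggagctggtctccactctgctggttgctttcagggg
Myoz2: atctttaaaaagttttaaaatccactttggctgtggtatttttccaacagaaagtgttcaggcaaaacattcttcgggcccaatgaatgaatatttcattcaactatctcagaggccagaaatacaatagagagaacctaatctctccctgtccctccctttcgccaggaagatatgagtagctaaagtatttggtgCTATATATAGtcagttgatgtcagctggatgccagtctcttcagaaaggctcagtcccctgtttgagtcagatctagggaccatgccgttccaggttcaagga
Ldb3: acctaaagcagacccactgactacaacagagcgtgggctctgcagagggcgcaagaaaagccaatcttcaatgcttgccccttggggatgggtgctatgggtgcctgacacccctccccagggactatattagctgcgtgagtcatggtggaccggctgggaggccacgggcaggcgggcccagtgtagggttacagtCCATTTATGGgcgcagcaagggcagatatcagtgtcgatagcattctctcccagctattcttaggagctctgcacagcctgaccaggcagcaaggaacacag

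The MEF2 match lay at -82 to -73 in Xirp1, at -74 to -65 in Xirp2 and at -53 to -44 in Myoz2, counted from the first transcribed base as 0. The MEF2 consensus, searched on both strands, was in 3.29% of all 33469 rat promoters of this length and in 3 of the 7 found here. The CArG box was in 1.64% of all promoters and in 1 of the 7, at -52 to -43 of Ldb3. The E-box CAGCTG was found in Xirp1, Myoz2 and Des (15.1% of all promoters). The letters GGAATG of the MCAT element were found in Flnc (14.2%). A GATA factor site was searched as AGATAA and found in Xirp1 (11.6%). The letters TATAAA were in none of the 7 (14.2% of all). Matches of MEF2 and of the last motif can overlap, since both are rich in A and T. These are matches of letters only, and binding was not measured.

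The main question for these genes was what an infarct did to them. In MI against Sham, 4 of the 10 genes passed the test (edgeR's quasi-likelihood test, Benjamini-Hochberg adjusted p under 0.05 over all genes tested): Xirp2 rose, and Actn2, Myoz2 and Des fell, the last 3 only under scaling to all genes, since scaling to cardiomyocyte markers put them slightly above Sham. Over all 18182 genes, 11.4% passed, 5.82% as higher and 5.53% as lower. The same 4 genes were the ones whose MI and Sham rats did not overlap, against 20.8% of genes with an average log2 CPM of at least 1. The median log2 fold change of the 10 genes was -0.18, beside 0.026 for all genes tested and -0.43 for the 14 cardiomyocyte markers.

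Of the 5 crosslinkers and scaffolds, Actn2 and Myoz2 were called lower, and Ldb3, Tcap and Flnc were not called. Desmin was the other gene called lower, and none of these 3 lower calls held under cardiomyocyte scaling. Under that scaling Ldb3 (0.24) and Flnc (0.44) were called higher, as were 38.3% of all genes. Actn2 (ENSRNOG00000017833) encodes sarcomeric alpha-actinin, which crosslinks actin at the Z-disc and binds titin. Its level was 635, 656, 694 and 751 CPM in Sham rats, 476, 497, 522 and 539 CPM in MI rats and 465, 467, 529 and 574 CPM in MI + UA rats. Every infarcted heart of either group lay below every Sham heart. The log2 fold change in MI against Sham was -0.43 (standard error 0.08, edgeR adjusted p = 0.00207), a level 25.7% below Sham.

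Myoz2 (calsarcin-1, ENSRNOG00000014815) tethers the phosphatase calcineurin to alpha-actinin. It was measured at 186, 187, 200 and 200 CPM in Sham, at 139, 143, 153 and 159 CPM in MI and at 138, 143, 150 and 154 CPM in MI + UA. The Sham rats stood apart from both infarcted groups, and the spread within each group was small (SD 7.69, 9.30 and 6.84 CPM, n = 4 each). The log2 fold change in MI was -0.38 (standard error 0.08, edgeR adjusted p = 0.00203), or 23.1% lower.

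Des (ENSRNOG00000019810) encodes desmin, the muscle intermediate filament that links neighbouring Z-discs to each other and to the cell membrane. Sham rats had 529, 530, 585 and 592 CPM, MI rats 429, 450, 452 and 482 CPM and MI + UA rats 385, 437, 473 and 481 CPM. All infarcted hearts were again below all Sham hearts. The log2 fold change in MI was -0.30 (standard error 0.08, edgeR adjusted p = 0.0189). This call was lost when Sham rat 32, Sham rat 38, MI rat 61 or MI rat 89 was left out, with adjusted p-values of 0.0652, 0.0690, 0.0506 and 0.0653, while those of Actn2 and Myoz2 held in all 12 such fits.

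Ldb3 (cypher or ZASP, ENSRNOG00000059166), a PDZ and LIM domain protein bound to alpha-actinin, had 733 ± 45.4 CPM (SD, n = 4) in Sham and 640 ± 61.3 CPM in MI. Its ranges overlapped because MI rat 57 (724 CPM) lay among the Sham rats (693 to 783 CPM), and the log2 fold change of -0.20 did not pass (standard error 0.09, edgeR adjusted p = 0.178). Tcap (telethonin, ENSRNOG00000068106), which caps the end of titin in the Z-disc, varied most within Sham: 107 CPM in rat 12, 144 in rat 17, 202 in rat 32 and 212 in rat 38. MI rats ran from 121 to 149 CPM, above Sham rat 12 and below Sham rats 32 and 38, and the log2 fold change of -0.27 did not pass (standard error 0.15, edgeR adjusted p = 0.286). Without Sham rat 12 it was -0.43, with an adjusted p of 0.0245, whereas without Sham rat 32 it was -0.17 (0.603) and without Sham rat 38 -0.13 (0.684), so single Sham rats decided this value. Flnc (ENSRNOG00000007281), the muscle filamin that gathers at Z-discs and at sites of damage, had 286 ± 48.9 CPM in Sham and 287 ± 73.1 CPM in MI (SD, n = 4). Its log2 fold change of 0.0049 had a 95% interval from -0.35 to 0.36.

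Of the 2 Xin genes, Xirp2 passed the test in MI against Sham and Xirp1 did not. Xirp2 (ENSRNOG00000034258), which binds actin and alpha-actinin and is best known from the intercalated disc, had 616, 646, 694 and 708 CPM in Sham, 728, 897, 950 and 1263 CPM in MI and 737, 905, 1061 and 1229 CPM in MI + UA. The lowest infarcted heart was just above the highest Sham heart, and the spread among infarcted hearts (SD 223 CPM in MI and 211 CPM in MI + UA) was wider than that of Sham (SD 42.2 CPM). The log2 fold change in MI was 0.53 (standard error 0.14, edgeR adjusted p = 0.0191), or 44.0% higher. This call was lost without Sham rat 12 (adjusted p = 0.0603), Sham rat 17 (0.0538) or MI rat 57 (0.0777), and without rat 57 the log2 fold change fell to 0.37. Xirp1 (ENSRNOG00000037085), the other Xin protein, had 169, 181, 182 and 194 CPM in Sham and 131, 145, 170 and 206 CPM in MI. The MI rats lay on both sides of the Sham range, and the log2 fold change was -0.16 (standard error 0.15, edgeR adjusted p = 0.599), going to -0.29 without MI rat 57 and to -0.066 without MI rat 61 and not past the threshold in either.

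Neither stretch-responsive regulator passed under scaling to all genes. Under scaling to cardiomyocyte markers both were called higher (Ankrd1 at 0.78, Csrp3 at 0.50), as were 38.3% of all genes. Ankrd1 (CARP, ENSRNOG00000018598), which binds titin in the I-band and also acts in the nucleus, had 447 CPM in Sham rat 12 and 823, 854 and 929 CPM in the other Sham rats. MI rats had 780, 858, 1009 and 1241 CPM, so 2 of them lay within the Sham range. The log2 fold change was 0.35 with a 95% interval from -0.026 to 0.72 (edgeR adjusted p = 0.249), and it was 0.16 without Sham rat 12 and 0.21 without MI rat 57. Csrp3 (muscle LIM protein, ENSRNOG00000014327), a Z-disc LIM protein tied to stretch sensing, had 117 ± 24.4 CPM (SD, n = 4) in Sham and 123 ± 19.8 CPM in MI. Its log2 fold change of 0.059 had a 95% interval from -0.21 to 0.33. For comparison, of the 4 load markers examined, Nppa (atrial natriuretic peptide) was called higher in MI at a log2 fold change of 2.74 (edgeR adjusted p = 7.94e-06), as was Myh7 (beta myosin heavy chain) at 0.69 (0.0350), while Nppb, at 0.25, and Acta1, at 0.58, did not pass.

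**Figure D1:**
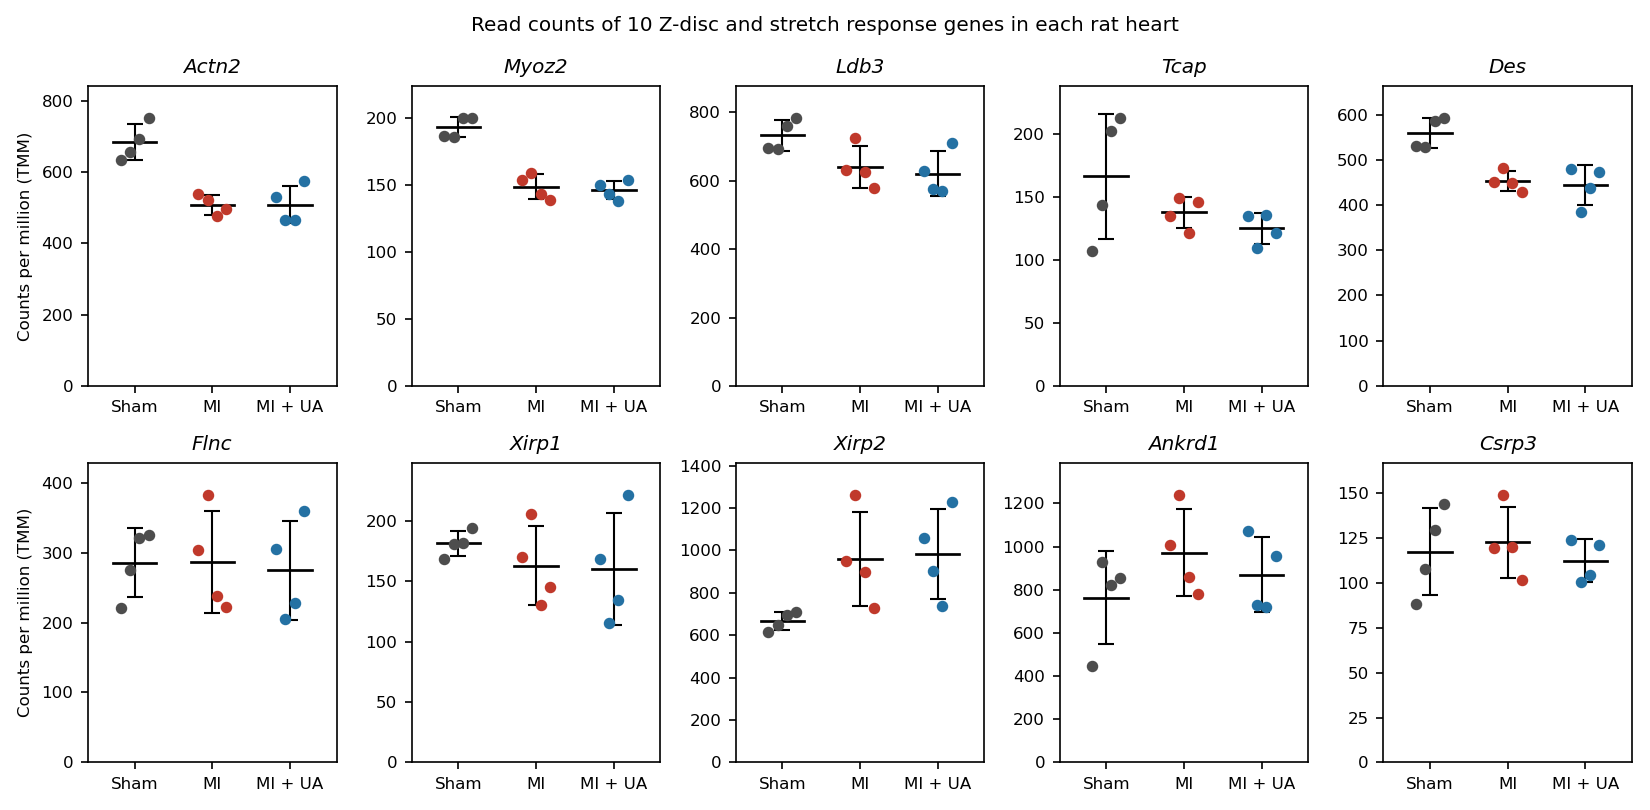
Level of each of the 10 genes in CPM (vertical axes, from 0) in each rat heart of the Sham, MI and MI + UA groups. Points are rats, horizontal lines group means and bars 1 SD (n = 4). For Actn2, Myoz2 and Des all MI and MI + UA points lie below all Sham points, and for Xirp2 all lie above.

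Markers of the heart's cell types differed between the same samples, and their counts stand beside 5.82% of all genes called higher and 5.53% called lower. In MI, 12 of the 14 cardiomyocyte markers were called lower and none higher, with a summed level of 53403 to 58994 CPM in Sham and 38194 to 45588 CPM in MI. Of 10 fibroblast markers 8 were called higher (summed 1194 to 1502 CPM in Sham, 2336 to 4042 in MI), of 6 macrophage markers 5 (107 to 138 CPM, then 225 to 369) and of 7 smooth muscle markers 4 (494 to 520 CPM, then 502 to 638). Of 6 endothelial markers 1, Kdr, was called lower (659 to 759 CPM, then 589 to 707). Of the 10 skeletal muscle markers 5 could be tested and 1, Tnnt3, was called higher (9.24 to 12.04 CPM in all, then 12.9 to 23.2). Of the 5 adipocyte markers 3 could be tested and none was called (110 to 150 CPM, then 97.1 to 125). Nearly all of that sum was Fabp4 (mean 137 CPM in Sham, 113 in MI). The other 2 tested went the other way on few reads: Adipoq had none in Sham and up to 29 in an MI rat, and Plin1 up to 2 and up to 16. In bulk tissue, fewer cells of a type and less RNA per cell cannot be told apart. The part of these lists in the calls of the 10 genes was not tested beyond the scaling that follows.

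The comparison was also made after scaling each library to the 14 cardiomyocyte markers, which asks how the 10 genes stood among muscle transcripts. This scaling raised the median log2 fold change of all genes from 0.026 to 0.46, and 38.3% of all genes were then called higher. On this scale 5 of the 10 genes were called, all of them higher in MI: Xirp2 at 0.95 (edgeR adjusted p = 4.55e-06), Ankrd1 at 0.78 (0.000494), Csrp3 at 0.50 (0.00130), Flnc at 0.44 (0.0128) and Ldb3 at 0.24 (0.0134). Set against the all-gene median, Xirp2 was 0.49 above it and Ankrd1 0.32 above it, whereas Csrp3 was 0.040 above, Flnc -0.025 and Ldb3 -0.22 from it. Actn2, at 0.0099, Myoz2, at 0.056, and Des, at 0.13, moved with the cardiomyocyte markers and were not called. The order of the 10 genes was the same on both scales, with Xirp2 and Ankrd1 at the top and Actn2 and Myoz2 at the bottom. A change of scaling shifts all genes by nearly the same amount, so the kept order is no separate result. With the same shift the sign of 6 of the 10 (Xirp1, Ldb3, Actn2, Tcap, Myoz2 and Des) turned from negative to positive.

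**Figure D2:**
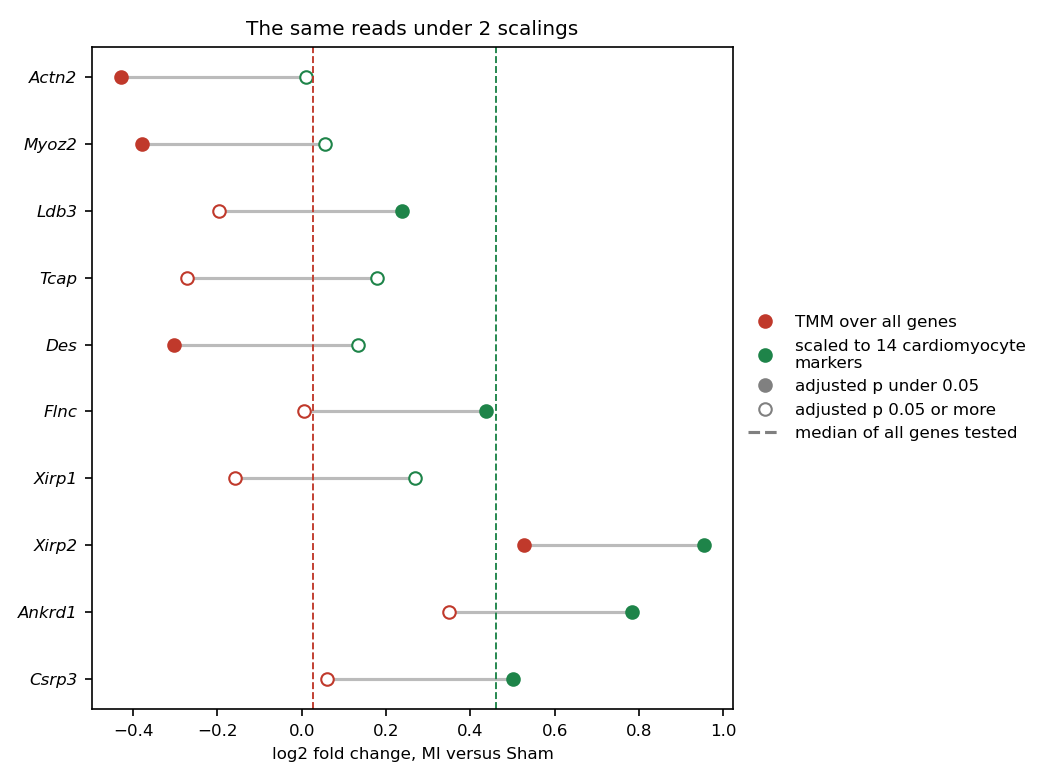
Log2 fold change in MI against Sham (horizontal axis) of the 10 genes when libraries are scaled over all genes (TMM, red) and when they are scaled to 14 cardiomyocyte markers (green), with filled points for an edgeR adjusted p under 0.05. Dashed lines give the median of all genes tested, 0.026 and 0.46; Actn2, Myoz2 and Des are called lower on the first scale and lie near 0 on the second, and Xirp2 is called higher on both.

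The second question was whether UA changed these genes in infarcted hearts. In MI + UA against MI none of the 10 genes passed the test, and none of all 18182 genes did (0%). With unadjusted p-values under 0.05, 689 genes or 3.79% were counted, and 0 of the 10. DESeq2 also called none of the 10. The ranges of the MI and MI + UA rats overlapped for every one of the 10, where 2.03% of genes with an average log2 CPM of at least 1 did not overlap. Log2 fold changes ran from -0.16 (Ankrd1) to 0.036 (Xirp2), with a median of -0.036.

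The intervals show what such a comparison could still hide. Among the genes that fell with infarction, Actn2 had a log2 difference of 0.0018 with a 95% interval from -0.17 to 0.18, Myoz2 of -0.022 with -0.18 to 0.13, and Des of -0.029 with -0.20 to 0.14. Each of these intervals ends short of the size of the MI effect on the same gene. For Xirp2 the interval was wider, from -0.26 to 0.33, and for Ankrd1 it ran from -0.53 to 0.21. Csrp3, at -0.12, and Tcap, at -0.14, had intervals from -0.39 to 0.15 and from -0.45 to 0.17. With rat 66 counted as MI, Xirp1 moved from -0.015 to -0.32, Flnc from -0.059 to -0.29 and Xirp2 from 0.036 to -0.17, none of them past the threshold, since that rat was the highest of its group for 6 of the 10 genes.

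**Figure D3:**
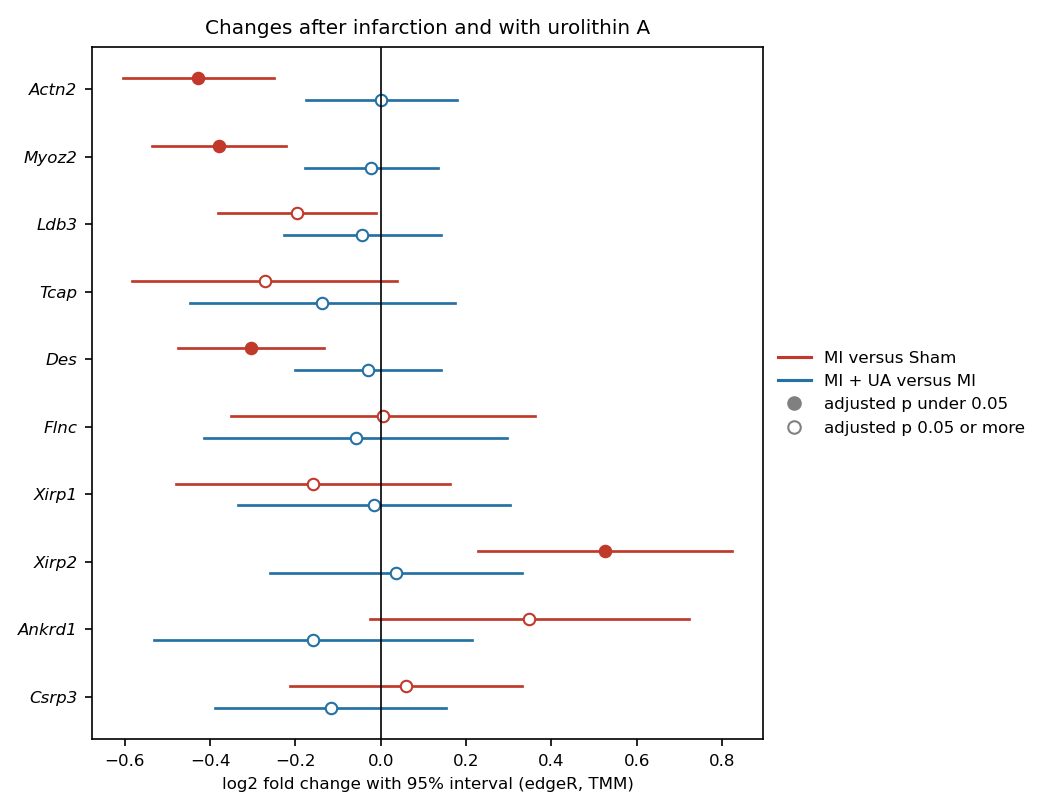
Log2 fold change with 95% interval (horizontal axis) of the 10 genes in MI against Sham (red) and in MI + UA against MI (blue), from edgeR with TMM scaling, with filled points for an adjusted p under 0.05. Actn2, Myoz2 and Des (lower) and Xirp2 (higher) are filled in red, no gene is filled in blue, and scaling to cardiomyocyte markers would move the 3 lower genes to values between 0.0099 and 0.13.

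Against Sham, MI + UA hearts had the same 4 genes past the test: Xirp2 at 0.56 (edgeR adjusted p = 0.0148), Actn2 at -0.43 (0.00262), Myoz2 at -0.40 (0.00159) and Des at -0.33 (0.0124), the last 3 at values of -0.031, -0.0045 and 0.063 under cardiomyocyte scaling, where none of them was called. Over all genes 9.44% passed, 5.16% higher and 4.27% lower, and the same 4 genes were the ones without overlap, against 18.7% of genes. This comparison uses the same Sham rats as that of MI against Sham. With rat 66 counted as MI, Xirp2 was at 0.44 and no longer passed (adjusted p = 0.0656), and Ldb3, at -0.31, did (0.0316). Ldb3 also passed without rat 66 (-0.31, 0.0227). Tcap, at -0.41, did not pass (0.0960), but did without Sham rat 12 (-0.57, 0.00530), and it was at -0.27 (0.346) without Sham rat 38. Des did not pass without Sham rat 38 (-0.30, 0.0511).

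Reads of a gene can also be set against those of its own relatives in the same library, which needs no scaling between libraries. Xirp1 made up 21.5%, 21.9%, 20.8% and 21.5% of the reads of Xirp1 and Xirp2 together in Sham rats 12, 17, 32 and 38. In MI rats 36, 57, 61 and 89 it made up 15.2%, 14.004%, 12.7% and 16.6%. No infarcted heart reached the Sham range, and the mean fell by 6.79 percentage points (exact permutation test, 2-sided, p = 0.0286, which is the smallest 4 rats against 4 allow). Actn2 made up 88.7% ± 0.556 of the alpha-actinin reads in Sham and 81.6% ± 2.03 in MI (SD, n = 4, exact permutation p = 0.0286), as Actn1, the widely expressed alpha-actinin of focal adhesions and stress fibres, went from 2.49% to 5.45% and Actn4 from 8.74% to 12.8%. Myoz2 made up 68.7% ± 0.892 of the myozenin reads in Sham and 63.6% ± 1.53 in MI (SD, n = 4, exact permutation p = 0.0286), nearly all the rest being Myoz3. Ankrd1 made up 95.8% ± 0.611 of the reads of its family, which also holds Ankrd2 and Ankrd23, in Sham and 93.2% ± 0.603 in MI (SD, n = 4, exact permutation p = 0.0286). Ankrd23 went from 4.21% to 6.83% of these reads, while the level of Ankrd1 itself was not lower in MI (log2 fold change 0.35, not called). For Csrp3 among the cysteine-rich proteins (55.5% and 47.7%) the ranges overlapped (exact permutation p = 0.114), as did those of 1 further share that is not reported here.

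None of these 5 shares separated MI + UA from MI, with exact permutation p-values from 0.0857 (Ankrd1, 94.3% against 93.2%) to 0.943 (Csrp3). These shares were taken up after the levels had been seen, and over all 18 comparisons of shares computed, a few of them not reported here, the smallest p becomes 0.0735 after Benjamini-Hochberg adjustment. Actn1 is made by fibroblasts and vessels too, and the fibroblast and macrophage marker lists were higher in the same MI samples. Their part in the shares was not tested.

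**Figure D4:**
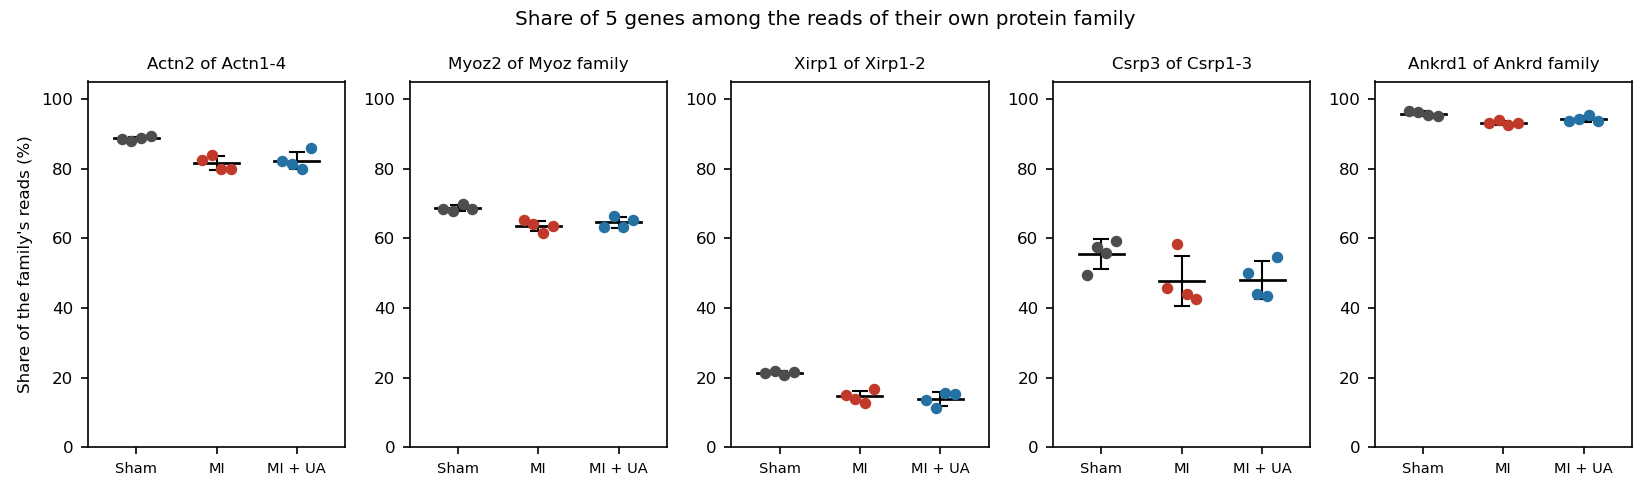
Share of the family's reads in percent (vertical axes, from 0) that fell on Actn2, Myoz2, Xirp1, Csrp3 and Ankrd1 in each rat, with points for rats, lines for group means and bars for 1 SD (n = 4). Sham and MI points are apart for Actn2, Myoz2, Xirp1 and Ankrd1 and overlap for Csrp3, and MI and MI + UA points overlap in every panel.

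The relatives were also compared on their own. Of 9 relatives tested, 4 were called higher in MI, none of them lower, and all 9 had positive log2 fold changes, where 5.82% of all genes were called higher and 5.53% lower: Actn1 at 0.83 (edgeR adjusted p = 0.000426), Vim at 0.79 (0.000182), Flna at 0.64 (0.00374) and Csrp1 at 0.54 (0.00486). Vim encodes vimentin, the intermediate filament of mesenchymal cells, and it went from 130 ± 13.0 CPM in Sham to 225 ± 37.1 CPM in MI (SD, n = 4), while Des went down. Among those that did not pass were Csrp2 (0.41), Actn4 (0.25), Nes (0.20) and Actn3 (0.16), and Actn3 had 104 reads in all.

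Of 34 other genes of Z-disc proteins, 30 could be tested, and MI had 3 called higher and 5 lower, beside 5.82% and 5.53% of all genes. The median over the 30 was -0.056 on the log2 scale. Higher were Ankrd23, a relative of Ankrd1 that also binds titin, at 1.04 (edgeR adjusted p = 0.00408), and the PDZ and LIM domain genes Pdlim1, at 0.45 (0.00449), and Pdlim7, at 0.30 (0.0359). Ankrd23 went from 34.2 ± 12.04 CPM in Sham to 70.4 ± 9.55 CPM in MI (SD, n = 4), with no overlap. Among the lower were Fhl2, a LIM protein that docks metabolic enzymes to titin, at -0.56 (0.00119), Cmya5 (myospryn) at -0.49 (0.00103), Nebl (nebulette), which binds actin beside the Z-disc, at -0.40 (0.0122), and the caveolar protein Cavin4 at -0.39 (0.00996). Scaling to cardiomyocyte markers put 19 of the 30 past the test, all of them higher in MI (38.3% of all genes were), so the lower calls rest on scaling over all genes. Ankrd2 had 8 reads in all, and the symbols Palld, Fhl1 and Smpx were not matched.

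In MI + UA against MI none of the 30 passed (0% of all genes did), and 1 of them, Pdlim1, had groups without overlap: 38.7 to 49.4 CPM in MI and 33.3 to 37.98 CPM with UA. This is 1 of 30, where 2.03% of genes with an average log2 CPM of at least 1 did not overlap, a share too near the background to be a result about the list. The difference was -0.23 on the log2 scale, with an unadjusted edgeR p of 0.0267 and an adjusted p of 1.00. Nebl, at 0.28, had an unadjusted p of 0.0101, with MI + UA rats from 117 to 172 CPM and MI rats from 104 to 121 CPM. Against Sham, MI + UA hearts had Pdlim7 called higher (0.29, adjusted p = 0.0483) and 6 genes lower, beside 5.16% and 4.27% of all genes, among them Fhl2 (-0.53), Cmya5 (-0.38), Nrap (-0.32), Cavin4 (-0.32) and Nexn (-0.28). These calls were made with scaling over all genes. Cardiomyocyte scaling raised the median log2 fold change of all genes in this comparison from 0.023 to 0.41.

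**Figure D5:**
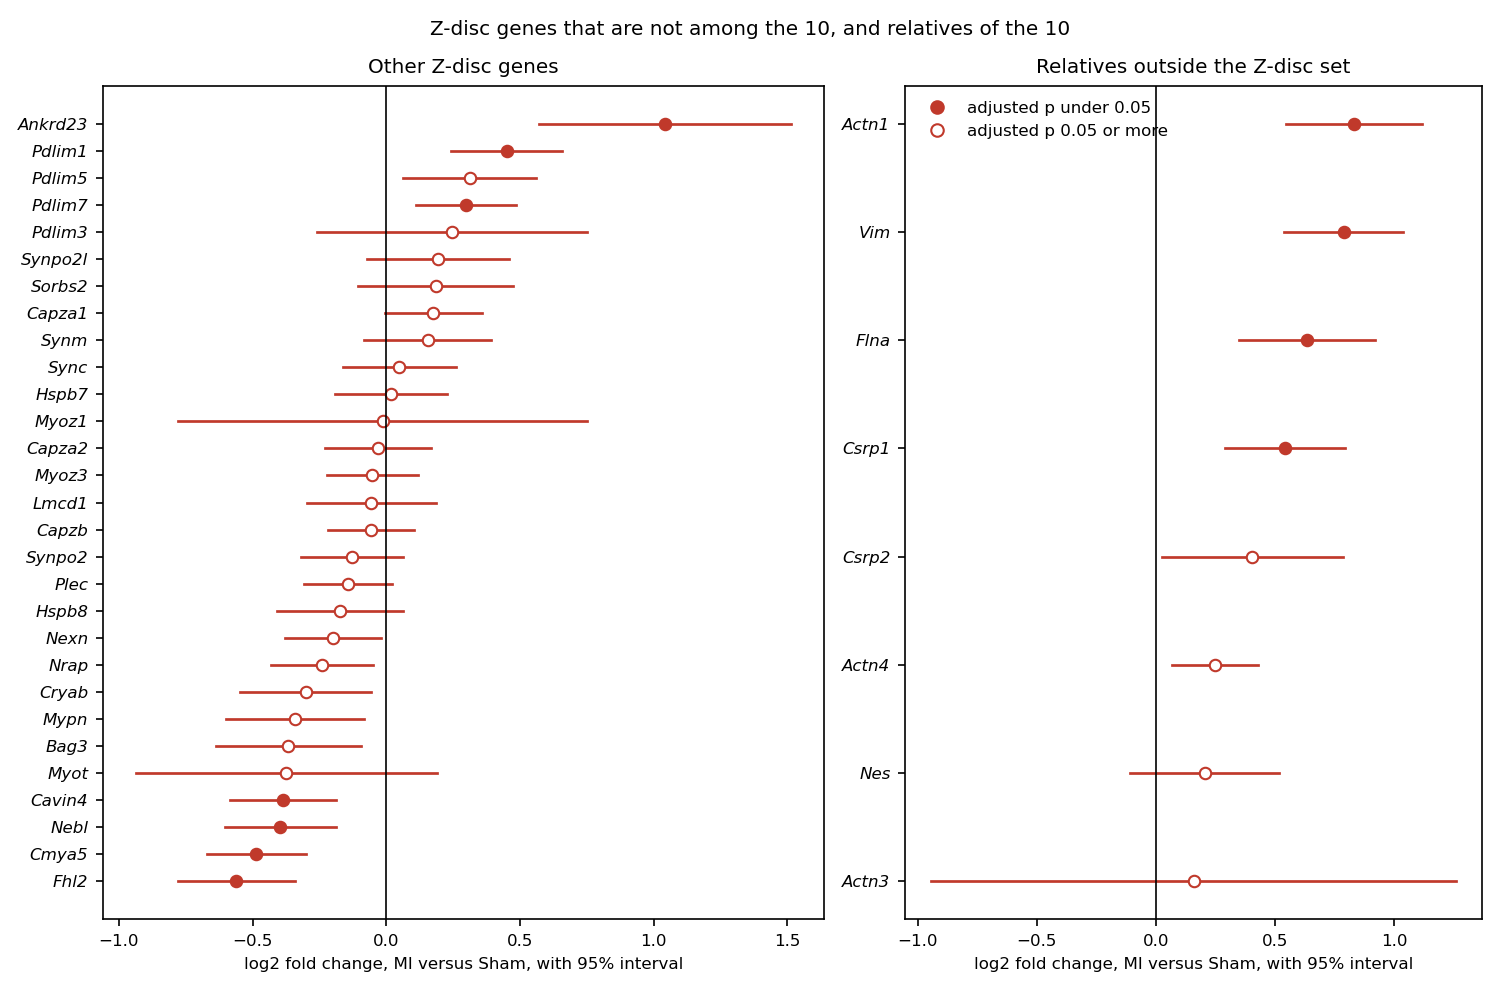
Log2 fold change in MI against Sham with 95% interval (horizontal axes) for 29 other genes of Z-disc proteins (left) and 8 relatives of the 10 genes (right), with filled points for an edgeR adjusted p under 0.05. Ankrd23, Pdlim1 and Pdlim7 are filled on the higher side and Fhl2, Cmya5, Nebl and Cavin4 on the lower side, which cardiomyocyte scaling does not keep, and all 8 relatives plotted lie above 0.

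The 10 genes also varied together among rats of the same group. Sham rat 12 was the lowest of its group for 7 of the 10 genes and Sham rat 38 the highest for 9. MI rat 57 was the highest of its group for all but Actn2, and MI rat 89 the lowest for 7. Over the 12 libraries, with each group's mean log2 CPM removed, Pearson's r between pairs of the 10 genes ran from 0.19 (Xirp2 and Tcap) to 0.93 (Xirp2 and Ldb3), with a median of 0.77 over 45 pairs. Tcap stood somewhat aside, since without it the lowest r was 0.61. The same residuals followed the mean of the cardiomyocyte markers, with r from 0.58 (Tcap) to 0.96 (Flnc), and the points share their libraries and their scaling.

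Among 7348 named genes with an average log2 CPM of at least 3, the 5 most like Ankrd1 over the 12 libraries included Nppb (r = 0.96), Atp5pd (0.95), Hspa4 (0.94) and Aif1l (0.94). Ankrd1 was far lower in Sham rat 12 (447 CPM) than in the other Sham rats (823 to 929 CPM). How much these r values rest on that rat was not tested. Nppb, brain natriuretic peptide, is itself a load-responsive gene, and like Ankrd1 it did not pass the test in MI (0.25, edgeR adjusted p = 0.562), nor did Hspa4 (-0.14) and Aif1l (0.36). Atp5pd, a subunit of ATP synthase, was called lower in MI on the TMM scale (-0.43, adjusted p = 0.00424), where Ankrd1 was at 0.35. The 5 most like Actn2 were Myh7b, Asb2 and Nfe2l1 (each r = 0.95), Nmt1 (0.94) and Bsdc1 (0.92). Asb2, a ubiquitin ligase subunit that targets filamins, was called lower in MI on the TMM scale (-0.45, adjusted p = 0.00580), as were Nfe2l1 (-0.35, 0.00312) and Bsdc1 (-0.34, 0.0401), while Myh7b (-0.25) and Nmt1 (-0.077) did not pass.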

How the data were processed

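RNA was extracted from formalin-fixed sections of 12 rat hearts, and strand-specific libraries were made after depletion of ribosomal RNA, although the labels name polyA RNA. The authors mapped read pairs to mRatBN7.2 (Ensembl annotation 108) with STAR 2.6.1c, counted them per gene with HTSeq, summarised quality with MultiQC 1.8, and left out 1 outlying MI + UA library, which is not analysed here. The deposited counts are whole reads per gene without normalization. The strand setting of the counting is not given in the sources used here. The 5 summary lines that name no gene were left out of library sizes and tests.

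Genes with at least 10 reads over all libraries were kept. edgeR 4.0.16 (R 4.3.3) was used for TMM scaling and for one quasi-likelihood fit over the 3 groups, with Benjamini-Hochberg adjustment over all 18182 genes and a threshold of 0.05. Levels are TMM-scaled CPM, and log2 CPM values carry a prior count of 1. Standard errors were taken as the log2 fold change over the square root of F, and 95% intervals from the fit's total degrees of freedom. Groups came from the sample labels, with 1 library per rat, and no batch is stated. Libraries of the same group all differed by more than sampling noise (chi-square per degree of freedom 1.95 to 17.0). Family shares were compared by exact permutation over 70 splits. Alternatives were DESeq2 1.42.0, other scalings (14 of 15 listed cardiomyocyte markers matched), other count filters, fits of the 2 groups compared, rat 66 counted as MI, and leaving out each rat. The tests were checked on simulated data. Figures were drawn with matplotlib.

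The 10 genes and all lists were chosen with earlier results of these data known. Named are the 10 genes, the other Z-disc genes past the threshold in any comparison, all relatives and load markers tested, and the 5 genes most like Ankrd1 and Actn2. Pdlim1 and Nebl are also described in MI + UA against MI for values seen there. A few genes that this rule takes in are counted in the totals but are not reported here. Promoters came from RefSeq (GRCr8).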

Additional observations from a re-analysis of the deposited data

Results flagged for a closer look

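Of 63 sets of 4 rats searched (each gene's log2 CPM and each list's mean log2 CPM in each group), 2 held a rat set apart from the other 3 by Dixon's test. Chance gives about 1 in 20, so 2 of 63 is no more than chance gives. Ankrd1 in Sham was lowest in rat 12, at a log2 CPM of 8.81, with the next rat at 9.69 and the highest at 9.86, so that the gap took 0.835 of the range. The mean of the smooth muscle markers in MI + UA was lowest in rat 66, at 4.61, with the next rat at 5.03 and the highest at 5.07, a gap of 0.899 of the range. Sham rat 12 was also the lowest Sham rat for Csrp3, Xirp1, Xirp2, Actn2, Tcap and Flnc. Its label carries a suffix after the rat number that no other label has, and the meaning of that suffix is not given. The cause of either gap was not tested.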

How the results depend on the processing

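The labels give each rat its own number and no number recurs across groups. No paired analysis was possible because the groups compared share no replicate numbers. The calls of Actn2 and Myoz2 in MI against Sham held under every alternative and every left-out rat except scaling to cardiomyocyte markers. Counts of the 10 genes called stayed between 3 and 5 in MI against Sham and in MI + UA against Sham, and at 0 in MI + UA against MI. The genes behind these counts were not always the same. With cardiomyocyte scaling Xirp2, Ankrd1, Csrp3, Flnc and Ldb3 were called in MI against Sham, all higher. In MI + UA against Sham they were Xirp2, Ankrd1 and Csrp3, all higher. Actn2, Myoz2 and Des were called in neither. With cardiomyocyte scaling the called other Z-disc genes went from 8 to 19 and the called relatives from 4 to 8, as the whole scale moved up. That scaling turned the sign in MI against Sham of Xirp1 (0.27), Ldb3 (0.24), Actn2 (0.0099), Tcap (0.18), Myoz2 (0.056) and Des (0.13), in MI + UA against MI of Xirp2 (-0.0045) and Actn2 (-0.041), and in MI + UA against Sham of Csrp3 (0.34), Xirp1 (0.20), Ldb3 (0.16), Tcap (0.0050), Flnc (0.33) and Des (0.063). Flnc in MI against Sham was -0.0047 with TMM factors from genes other than the mitochondrially encoded ones and -0.011 with the 2 groups alone. Actn2 in MI + UA against MI was -0.00037 with DESeq2 size factors, -0.00032 without the mitochondrially encoded genes, -0.0038 with filterByExpr, -0.0022 with the 2 groups alone and -0.099 with rat 66 counted as MI, where Xirp2 was -0.17. Leaving out each rat in turn crossed 0 for Csrp3 (-0.056 to 0.17) and Flnc (-0.16 to 0.11) in MI against Sham. It did so for Csrp3 (-0.17 to 0.057) and Flnc (-0.21 to 0.062) in MI + UA against Sham. In MI + UA against MI it did so for Xirp1 (-0.22 to 0.11), Xirp2 (-0.090 to 0.20), Ldb3 (-0.11 to 0.022), Actn2 (-0.062 to 0.042), Myoz2 (-0.054 to 0.011), Flnc (-0.22 to 0.11) and Des (-0.072 to 0.033). The cause was not tested. Differences in family shares between MI and Sham kept their sign in all 12 fits that left out a rat, while, of those reported, the differences between MI + UA and MI crossed 0 for Actn2 (-0.42 to 1.58 percentage points), Csrp3 (-1.86 to 3.93) and Xirp1 (-1.32 to 0.20).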
